A study of Homo sapiens with 4 samples.

Results

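The collagen family was examined in MCF10A.B2 cells, a human breast epithelial cell line that expresses a chimeric, chemically activatable ErbB2 (HER2). The members were all genes that the array names as COL, a number, A and a number, counted on spots other than controls. They came to 43 of the 27193 genes on the array, measured by 55 of 34127 probes and 82 of 43118 spots. The 2 control arrays held RNA from cells labelled control and Ctrl, which the study's methods describe as wild type cells. The 2 PAK1 shRNA arrays held RNA from the same line carrying a tetracycline inducible shRNA against PAK1, a kinase that acts downstream of the small GTPases Rac and Cdc42. Cells of both groups were grown with 5% horse serum, starved of serum for 3 h and treated for 15 min with AP1510, a crosslinker that activates the chimeric receptor. All 4 arrays lay on 1 slide and carried a single dye, Cy3. The labels name the cell line for every sample, whereas the series' own account speaks of cells derived from tumors, and neither settles how the replicates were obtained, so that the p-values measure the spread between these samples only. No array with a control shRNA was analysed here, and the effect of the shRNA vector cannot be told apart from that of PAK1. Levels below are background-corrected, quantile-normalized log2 intensities, and changes are log2 fold changes of PAK1 shRNA over control with their standard error (SE) from limma, n = 2 arrays in each group.

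Collagens are secreted or membrane proteins of 3 chains wound into a triple helix, which needs a glycine at regular steps along each chain. Fibrillar collagens form the cables of connective tissue, and type IV collagen forms the sheet of the basement membrane on which mammary epithelial cells rest. In skin and breast epithelium, collagen XVII of the hemidesmosome and the anchoring fibrils of collagen VII tie basal cells to the matrix beneath them. Other collagens sit on the surface of fibrils (the FACIT group), build hexagonal or beaded networks, span the plasma membrane, or carry long sugar chains in basement membranes (the multiplexins).

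Sequences of 3 probes are shown first, because they let a reader see what part of a collagen chain gave the signal. The probe inside COL16A1 (hg19, chr1:32148536-32148595, minus strand) lies in the triple helix, and its capitals mark 5 glycine codons with 2 other codons between each. The probes of COL8A1 (hg19, chr3:99514765-99514824, plus strand) and COL8A2 (hg19, chr1:36563302-36563361, minus strand) lie in the C-terminal domain that these chains share. Their capitals mark identical bases in the best ungapped alignment, 26 of 36 aligned bases or 72.2%.
COL16A1: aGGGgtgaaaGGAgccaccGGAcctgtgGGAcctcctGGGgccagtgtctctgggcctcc
COL8A1: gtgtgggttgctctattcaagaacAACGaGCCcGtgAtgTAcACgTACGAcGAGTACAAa
COL8A2: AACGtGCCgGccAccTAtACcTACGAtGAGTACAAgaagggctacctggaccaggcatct

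In cells with the PAK1 shRNA, more collagen genes were higher than lower. A gene was tested if 1 of its probes stood well above background on each array of 1 group or of both. This left 33 of 43 collagen genes, of which 19 were higher, 6 were lower and 8 did not pass at an adjusted p of 0.05. A plain unpaired test without limma's moderation called 9 higher and 4 lower. The split was 16 higher and 14 lower when median centring was combined with a background fit over all spots, a setting chosen after the data were seen. The comparison was broad, since 62.6% of the 21921 genes tested on the array passed, with 30.6% higher and 32.0% lower. Among the collagen genes tested 57.6% were higher and 18.2% were lower. Their median change was 0.32, against 0.02 over all genes tested; it was 0.50 under 75th percentile scaling and 0.18 over all 43 genes without the filter. At least 2-fold changes were found in 11 collagen genes, 8 higher and 3 lower, or 33.3% of those tested against 17.9% of all genes. Arrays of the groups did not overlap for 31 of the 33 genes, beside 81.6% of all genes with a value on every array. COL21A1 and COL15A1 entered the test through the control arrays alone, so the shares above describe the genes that passed the filter and not the whole family.

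PAK1 itself served as a check of the labels. Control arrays read 11.19 and 11.27 and PAK1 shRNA arrays 10.44 and 10.51, a change of -0.76 (SE 0.08, adjusted p = 0.000181) that left 59.2% of the control level; the sign turned to 0.17 (adjusted p = 0.213) when median centring was combined with a background fit over all spots. That combined setting also turned the sign of 11 of the 33 collagen genes, named where they are described, and ended the calls of COL9A2 and COL20A1. Spots of very high local background lay on the control arrays only, 8 and 18 of them, and spots of flagged background were left out of the fit. All 8 basal epithelial markers were well above background on each array, with 5 lower and 2 higher in PAK1 shRNA cells, and of the 7 luminal markers 2 were higher and 2 lower. Of 8 fibroblast markers 6 were measured, and their summed linear intensity was 5367 to 5991 on control arrays and 15179 to 15181 on PAK1 shRNA arrays. FAP, MFAP5, LUM and DCN were higher and PDGFRB was lower, while PDGFRA and THY1 were not well above background on both arrays of either group. Of the endothelial markers 4 of 6 were tested (1 higher, 1 lower), and of the leukocyte markers 5 of 6 (2 higher). The part of any other cell type in the collagen values was not tested. On arrays of whole-culture RNA, fewer cells of a kind and less RNA per cell cannot be told apart.

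**Figure D1:**
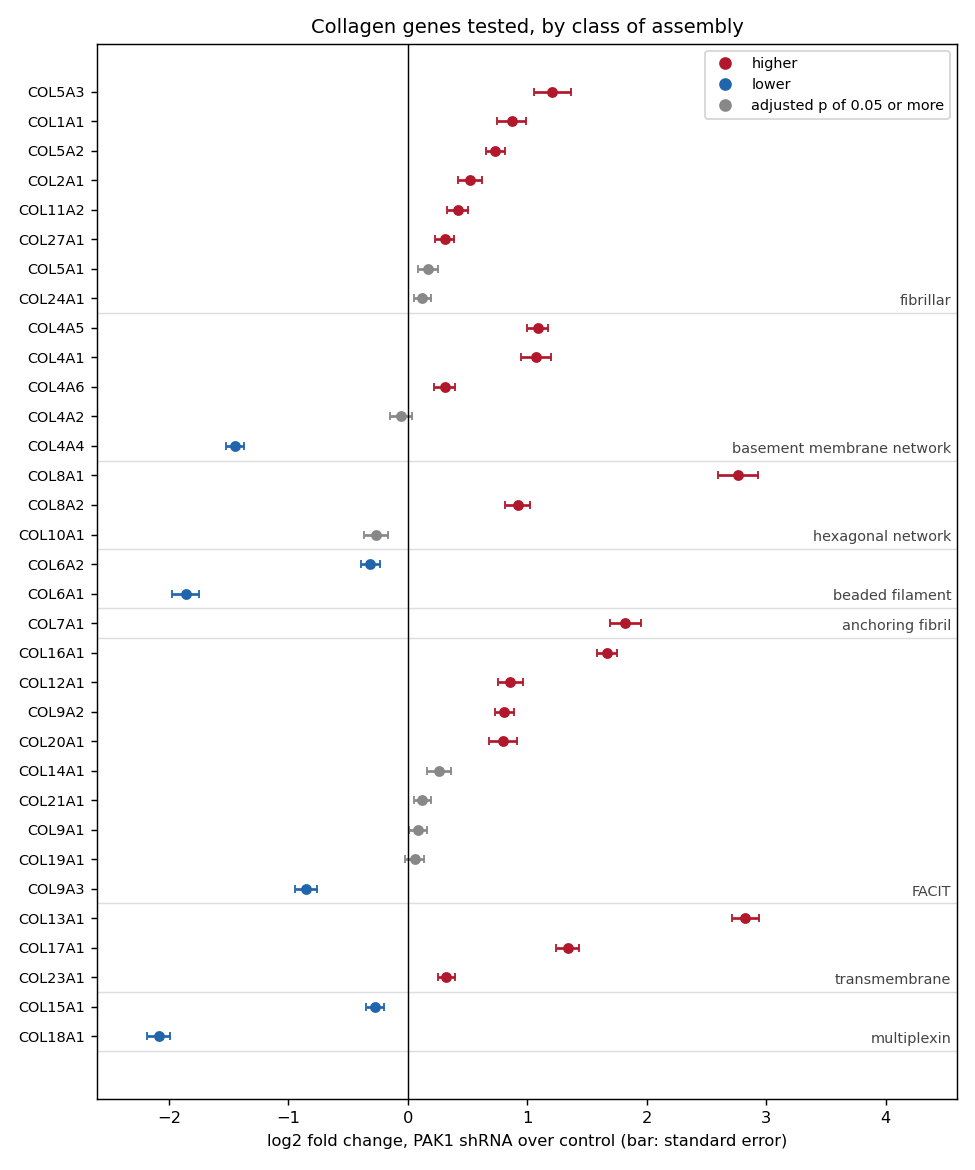
Log2 fold change of PAK1 shRNA over control (horizontal axis, bars are SE, n = 2 arrays per group) for the 33 collagen genes tested, grouped by the kind of assembly they build. COL13A1 at 2.82 and COL8A1 at 2.76 stand at the high end and COL18A1 at -2.09 at the low end. The signs of 11 of the 33 genes turned when median centring was combined with a background fit over all spots. Of these, COL2A1, COL23A1 and COL8A2 had passed and 8 had not. Among genes that passed, the sign of COL15A1 turned under median centring alone.

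Among collagens that span the plasma membrane, COL13A1 and COL17A1 rose. COL13A1, a transmembrane collagen of cell adhesions, read 7.77 and 8.08 on control arrays and 10.71 and 10.79 on PAK1 shRNA arrays. Both PAK1 shRNA arrays were far above both controls, a 7.09-fold difference (log2 2.82, SE 0.11, adjusted p = 3.89e-06). Its probe (hg19, chr10:71718811-71718870) is printed on 10 spots, whose mean was taken on each array. COL17A1, the hemidesmosome collagen of basal keratinocytes and mammary basal cells, read 14.24 and 14.02 on control arrays and 15.42 and 15.52 on PAK1 shRNA arrays. It was thus bright in both groups and 2.53-fold higher with the shRNA (log2 1.34, SE 0.10, adjusted p = 4.39e-05). COL23A1, a smaller transmembrane collagen, was dim and changed by 0.32 (SE 0.07, adjusted p = 0.00752), a call that was lost without PAK1 shRNA replicate 2 (0.29, adjusted p = 0.0508) and a sign that turned to -0.79 under median centring with all spots in the background fit. COL25A1, a transmembrane collagen found in nerve tissue, read 8.60 on control replicate 2 and 6.07 to 6.18 on the other 3 arrays, where it was at background. Only 1 array carried that signal, and the gene was not tested.

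COL7A1, the single gene of the anchoring fibril, rose with COL17A1. It read 12.73 and 12.34 on control arrays and 14.34 and 14.38 on PAK1 shRNA arrays. The groups were well apart, 3.53-fold (log2 1.82, SE 0.13, adjusted p = 3.98e-05). Of 9 listed partners in hemidesmosomes and anchoring, all tested, 3 were higher, 1 was lower and 5 did not pass. The higher share was 33.3%, beside 30.6% of all genes tested, and the median change was 0.12. The laminin chains LAMA3 and LAMB3 had the 2 largest rises of this list. LAMA3 changed by 1.26 and LAMB3 by 1.19, each without a value on PAK1 shRNA replicate 2, whose spot was flagged, so that the remaining array was assumed to vary like the others. LAMA3 took the value -1.28 (adjusted p = 0.396) when its probes were averaged. Where only probes with a value on every array were used, it was 0.13 under cyclic loess (adjusted p = 0.206) and 0.12 under the filter on all 4 arrays (adjusted p = 0.228), and the call was lost. FERMT1, which links integrins to actin, was lower at -0.23, lost its call when any single array was left out, with adjusted p up to 0.129, and turned to 0.97 when median centring was combined with all spots in the background fit. Partners that did not pass included the integrin chains ITGA6 at -0.09 and ITGB4 at 0.06.

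The hexagonal network collagens COL8A1 and COL8A2 were both higher. COL8A1, a short-chain collagen best known from vessel walls and the cornea, read 12.19 and 11.84 on control arrays and 14.58 and 14.98 on PAK1 shRNA arrays. The lowest PAK1 shRNA array was above the highest control by far more than the replicates differed, and the difference was 6.79-fold (log2 2.76, SE 0.16, adjusted p = 1.76e-05). COL8A2, its partner chain, was close to background at 6.81 and 6.84 on control arrays and reached 7.60 and 7.89 on PAK1 shRNA arrays. It changed by 0.92 (SE 0.11, adjusted p = 0.000349), though the value turned to -0.35 under median centring with all spots in the background fit, and a second COL8A2 probe was at background on all arrays. COL10A1, the collagen of growth plate cartilage, did not pass at -0.27 (SE 0.10, adjusted p = 0.0608). It was called lower under median centring (-0.34, adjusted p = 0.0237) and in the deposited log2 table (-0.30, adjusted p = 0.0458). The call was also made with replicate number as a block in the fit (-0.27, adjusted p = 0.0232). Leaving out control replicate 2 gave -0.39, and median centring with all spots in the fit turned it to 0.26.

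**Figure D2:**
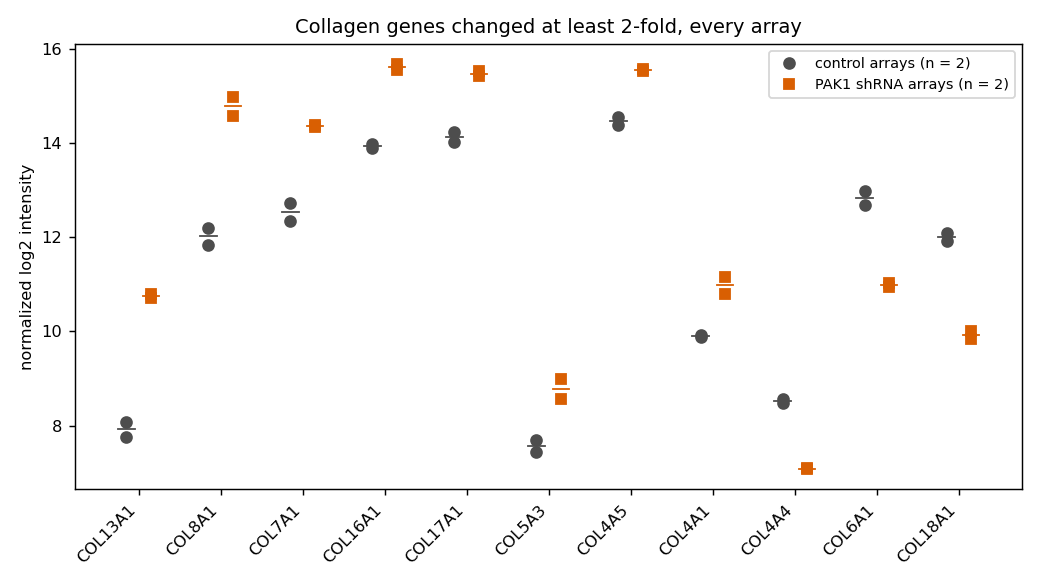
Normalized log2 intensity (vertical axis) of the 11 collagen genes that passed and changed at least 2-fold, on each of the 2 control arrays (circles) and the 2 PAK1 shRNA arrays (squares), with lines at the group means. For each gene the arrays of the groups do not overlap; COL8A1 runs from 11.84 on its lowest control to 14.98 on its highest PAK1 shRNA array, and COL18A1 from 12.10 down to 9.83.

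Type IV collagen, the network former of basement membranes, differed from chain to chain. COL4A5 read 14.55 and 14.39 on control arrays and 15.58 and 15.53 on PAK1 shRNA arrays. This bright chain was 2.12-fold higher (log2 1.08, SE 0.08, adjusted p = 5.67e-05). COL4A1 read 9.88 and 9.93 on control arrays and 10.79 and 11.17 on PAK1 shRNA arrays, a 2.10-fold difference (log2 1.07, SE 0.13, adjusted p = 0.000371). COL4A2, which joins COL4A1 in the common trimer, read 14.70 and 14.66 on control arrays and 14.51 and 14.73 on PAK1 shRNA arrays. Here the groups overlapped and the change of -0.06 (SE 0.09, adjusted p = 0.621) did not pass; its sign turned under 75th percentile scaling (0.036), cyclic loess (0.089), without PAK1 shRNA replicate 1 (0.049), and with median centring and all spots in the background fit (1.20, adjusted p = 3.29e-20). COL4A6 changed by 0.31 (SE 0.09, adjusted p = 0.02), a call that was lost when control replicate 2 or either PAK1 shRNA array was left out, with adjusted p up to 0.0826. COL4A4, a chain of the kidney and eye basement membrane, went the other way, with 8.49 and 8.58 on control arrays and 7.08 and 7.10 on PAK1 shRNA arrays. It fell to 36.7% of the control level (log2 -1.44, SE 0.07, adjusted p = 1.04e-05), and its partner COL4A3 was at background on all 4 arrays.

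The genes of type IV collagen lie in head-to-head pairs, and the stretch upstream of both starts is shown because the paired genes gave unlike values. RefSeq's GRCh38.p14 places the starts of COL4A1 and COL4A2 127 bases apart, those of COL4A5 and COL4A6 380 bases apart, and those of COL4A3 and COL4A4 419 bases apart. Each stretch below is on the plus strand, upstream of both genes and inside both promoter windows of 250 bases before to 50 after the start. Capitals mark the letters GGGCGG and CCAAT on either strand, which are matches to letters and not sites shown to be bound.
COL4A1 and COL4A2 (chr13:110307158-110307283): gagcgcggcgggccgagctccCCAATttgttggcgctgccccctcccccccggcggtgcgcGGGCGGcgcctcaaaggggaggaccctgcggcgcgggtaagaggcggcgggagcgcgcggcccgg
COL4A5 and COL4A6 (chrX:108439588-108439708): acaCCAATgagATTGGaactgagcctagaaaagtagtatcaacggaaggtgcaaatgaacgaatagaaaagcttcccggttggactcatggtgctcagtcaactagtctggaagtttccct
COL4A3 and COL4A4 (chr2:227164374-227164455): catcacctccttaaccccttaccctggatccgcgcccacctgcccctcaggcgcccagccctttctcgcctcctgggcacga

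The stretch between COL4A1 and COL4A2 is 80.2% G and C and holds 1 match to GGGCGG and 1 to CCAAT, whereas that of COL4A5 and COL4A6 is 44.6% G and C with 2 matches to CCAAT. The former is the whole gap between the starts. The latter is only 121 bases from the middle of a gap between starts 380 bases apart, so these figures are not like for like. Promoter windows were found for 31 of the 43 collagen genes. GGGCGG, read on both strands, occurred in those of 21 of the 31, beside 45% of all 35116 windows in the table. CCAAT occurred for 12 of the 31 beside 34.6%, and TATAAA for 7 of the 31 beside 11.5%. GGGCGG was found for 11 of the 14 higher genes with a window and for 3 of the 4 lower ones, too few for a comparison of the directions. Some genes have more than 1 window in the table, so that the shares per gene and per window are not on the same footing.

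Laminins, perlecan and agrin, which share the basement membrane with type IV collagen, were mostly higher. Of 8 listed genes 7 were tested, of which 5 (71.4%) were higher and 2 did not pass. Over all genes tested 30.6% were higher. AGRN, the proteoglycan agrin, changed by 1.51 (SE 0.10) and LAMB2, a laminin beta chain, by 1.40 (SE 0.14), the top 2 of the list. LAMC1 at 0.27 and NID1 at 0.15 did not pass.

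The measured changes of chains of 1 collagen type were of unequal size. COL4A1 exceeded COL4A2 by 1.13 in log2 fold change, and COL4A5 exceeded COL4A6 by 0.78. COL8A1 exceeded COL8A2 by 1.84, and COL6A1 fell further than COL6A2, with a difference of -1.54. However, COL8A2 and COL6A2 were dim, with control means of 6.83 and 6.74. The lowest signal well above background was 6.12 to 6.21, so COL6A2 had little room to fall. Under 75th percentile scaling COL8A2 changed by 1.77 and COL6A2 by -0.58, so the size of these 2 gaps depends on the processing. COL9A2 and COL9A3 went in opposite directions, 1.66 apart. In each of the 9 pairs with both chains measured, the exact two-sided permutation test over 4 arrays gave p = 0.333, the smallest p that 2 against 2 arrays allow, so this test could not show whether the chains differed. Both chains were compared as changes, not as levels, since different probes do not share a scale.

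**Figure D3:**
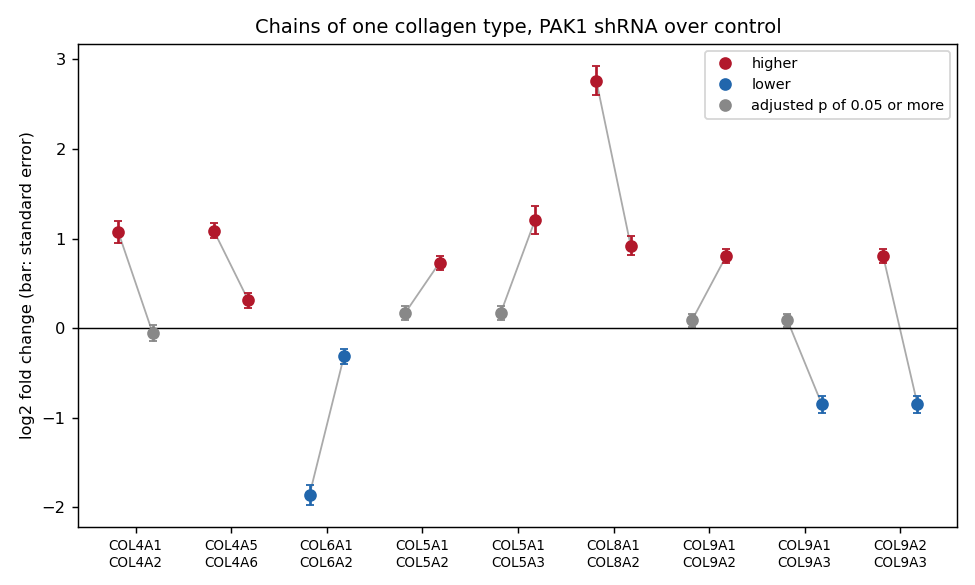
Log2 fold change of PAK1 shRNA over control (vertical axis, bars are SE, n = 2 arrays per group) for 9 pairs of chains that belong to 1 collagen type, joined by grey lines. COL4A1 at 1.07 stands above COL4A2 at -0.06, and COL9A2 at 0.81 above COL9A3 at -0.85; the signs of COL4A2, COL5A1, COL8A2 and COL9A1 turned when median centring was combined with all spots in the background fit, and that of COL4A2 also under 75th percentile scaling and cyclic loess.

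Among the 6 lower genes, COL18A1 and COL6A1 changed the most. COL18A1, the basement membrane multiplexin whose end is released as endostatin, read 12.10 and 11.91 on control arrays and 10.004 and 9.83 on PAK1 shRNA arrays. It fell to 23.5% of the control level (log2 -2.09, SE 0.10, adjusted p = 7.55e-06). COL6A1, a chain of the beaded filaments that lie next to basement membranes, read 12.99 and 12.69 on control arrays and 10.93 and 11.02 on PAK1 shRNA arrays. Both PAK1 shRNA arrays were well below both controls, at 27.6% of their level (log2 -1.86, SE 0.11, adjusted p = 1.93e-05). COL6A2, the second chain, was dim and changed by -0.32 (SE 0.08, adjusted p = 0.0122), but without control replicate 2 the adjusted p was 0.0553 and without PAK1 shRNA replicate 2 it was 0.0783. Under median centring it changed by -0.022 (adjusted p = 0.866). COL6A3, COL6A5 and COL6A6 were at background on all arrays, and COL28A1, a beaded filament collagen, was above background on 1 PAK1 shRNA array only. COL15A1, the other multiplexin, read 6.29 and 6.39 on control arrays and was at background on both PAK1 shRNA arrays. It was at least 1.11-fold lower (adjusted p = 0.018), lost the call when control replicate 2 or either PAK1 shRNA array was left out (adjusted p up to 0.0906), and turned to 0.087 under median centring.

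COL18A1, COL6A1 and COL6A2 lie near each other on chromosome 21, with probes (hg19) at chr21:46933558-46933617, chr21:47424836-47424895 and chr21:47549291-47549350. Of 25 other genes tested within 500 kb of these probes 6 were higher and 7 were lower, or 24% and 28%, beside 27.2% and 26.4% of the 265 other genes tested on that chromosome. SLC19A1, whose probe is the nearest to that of COL18A1 and which encodes a folate carrier, was lower at -1.21 (adjusted p = 1.83e-05); it was named for its position after its value was seen. ADARB1, an RNA-editing enzyme also named for its value, was higher at 1.06.

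Fibrillar collagens were measured for 8 of 11 genes, of which 6 were higher and 2 did not pass. COL5A3, a chain of fibril-nucleating type V collagen, read 7.70 and 7.43 on control arrays and 8.57 and 8.98 on PAK1 shRNA arrays. It was 2.31-fold higher (log2 1.21, SE 0.16, adjusted p = 0.00056). COL1A1, the main chain of type I collagen, read 8.78 and 8.42 on control arrays and 9.43 and 9.502 on PAK1 shRNA arrays (log2 0.87, SE 0.12, adjusted p = 0.00092). Its partner COL1A2 was at background on all 4 arrays although its probe is printed on 10 spots, and so were COL3A1 and COL11A1. COL5A2, another type V chain, changed by 0.73 (SE 0.08, adjusted p = 0.00026). COL2A1, the collagen of cartilage, changed by 0.52 (SE 0.10, adjusted p = 0.00364), with -0.74 under median centring with all spots in the background fit. COL27A1 at 0.31 lost its call without PAK1 shRNA replicate 1 (adjusted p = 0.067). COL5A1 at 0.17 and COL24A1 at 0.12 did not pass, and both were negative under the same combined setting, at -0.10 and -1.23. However, COL5A1 was called higher under 75th percentile scaling (0.32, adjusted p = 0.0326), and COL24A1 under median centring alone (0.38, adjusted p = 0.00793).

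FACIT collagens decorate fibrils or link them to other matrix, and of 9 tested 4 were higher, 1 was lower and 4 did not pass. COL16A1 read 13.99 and 13.90 on control arrays and 15.55 and 15.67 on PAK1 shRNA arrays, 3.18-fold apart (log2 1.67, SE 0.08, adjusted p = 8.58e-06). COL12A1, a large FACIT of dense matrix, changed by 0.86 (SE 0.10, adjusted p = 0.000425). COL9A2 changed by 0.81 (SE 0.08, adjusted p = 0.000171) and COL20A1 by 0.80 (SE 0.12, adjusted p = 0.00101); median centring with all spots in the background fit left 0.15 (adjusted p = 0.278) and 0.20 (adjusted p = 0.132). COL9A3 was the lower member, with 9.41 and 9.19 on control arrays and 8.47 and 8.42 on PAK1 shRNA arrays (log2 -0.85, SE 0.09, adjusted p = 0.000278). COL14A1 at 0.26, COL21A1 at 0.12, COL9A1 at 0.09 and COL19A1 at 0.06 did not pass, and COL22A1 was at background on all arrays. The signs of those 4 turned under median centring with all spots in the fit (-0.49, -1.45, -0.80 and -1.51). Median centring alone called COL14A1 (0.40, adjusted p = 0.0156), COL21A1 (0.44, adjusted p = 0.00809), COL9A1 (0.26, adjusted p = 0.0411) and COL19A1 (0.39, adjusted p = 0.0319) higher. With 75th percentile scaling COL14A1 (0.50), COL9A1 (0.39) and COL19A1 (0.50) were called higher. Cyclic loess called COL14A1 higher too (0.26, adjusted p = 0.0476), whereas the deposited log2 table gave -0.048 for it. COL14A1 passed at 0.37 without PAK1 shRNA replicate 1 (adjusted p = 0.0313) and also under the replicate block (0.26, adjusted p = 0.0246), while COL19A1 was at -0.0085 without control replicate 1.

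Several genes were read by more than 1 probe. The COL11A2 probe that stands for the gene, the brightest (hg19, chr6:33154232-33154291), changed by 0.42. The other 2 probes (hg19, chr6:33130469-33130509 and chr6:33130677-33130736) changed by 1.24 and 1.09. The array assigns these 2 to another transcript of the gene than the brightest probe. By the rule of the brightest probe, COL11A2 was not counted among the genes changed at least 2-fold. COL16A1 changed by 1.67 at its brightest probe and by 0.76 at the triple helix probe shown above, both past the threshold in the fit over probes (adjusted p = 4.17e-06 and 0.000476). The 2 COL12A1 probes gave 0.86 and 0.94. COL20A1 rested on 1 of its 2 probes, since the other gave 0.09 (adjusted p = 0.343). COL6A2 likewise rested on 1 of its 2 probes. The other gave -0.12 (adjusted p = 0.195) and was at background on both PAK1 shRNA arrays. Among 26301 probes in that fit 63.6% passed.

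**Figure D4:**
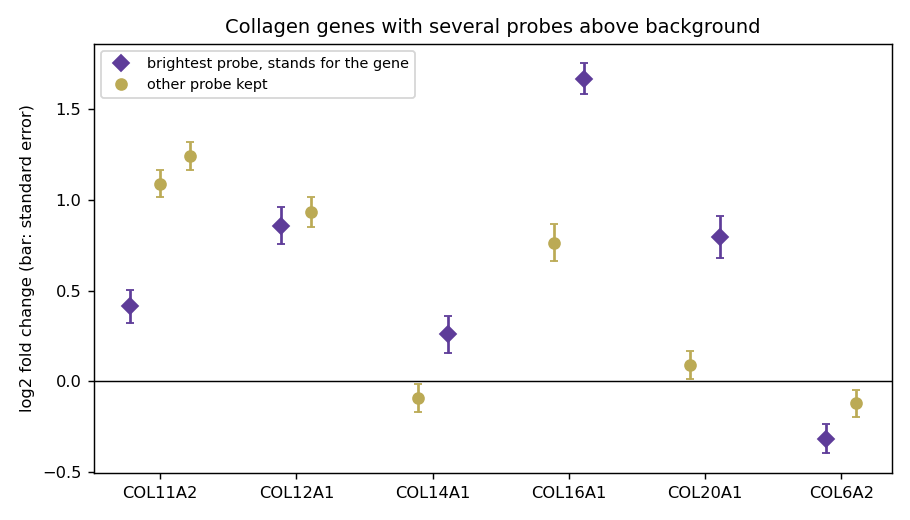
Log2 fold change of PAK1 shRNA over control (vertical axis, bars are SE of the fit over probes, n = 2 arrays per group) for each kept probe of the 6 collagen genes with several probes above background, the brightest probe as a diamond and the others as circles. The COL11A2 probes lie at 0.42, 1.09 and 1.24, those of COL16A1 at 0.76 and 1.67, and those of COL14A1 on either side of 0, where its brightest probe also turned sign in the deposited log2 table (-0.048) and under median centring with all spots in the background fit.

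Genes that make, export and receive collagen were followed in 8 lists. Of 83 listed genes 76 were tested, 38 (50%) were higher and 15 (19.7%) were lower, beside 30.6% and 32.0% of all genes, with a median of 0.25 against 0.02 over all genes. Of 17 genes tested that fold and modify collagen, 10 were higher and 3 lower. PLOD2, which hydroxylates the lysines used in crosslinks, changed by 1.35 (SE 0.11) without a value on control replicate 1, and SERPINH1, the collagen chaperone HSP47, by 1.32 (SE 0.10) without a value on PAK1 shRNA replicate 1. For both, the lone array of that group was assumed to vary like the others. P3H3 (LEPREL2 on the array) and CRTAP, of prolyl 3-hydroxylase complexes, fell by 1.52 and 1.48 on the log2 scale. Members of 1 list thus moved in both directions.

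In the export list 4 of 8 tested genes were higher and 3 lower. SEC24D, a coat protein of the vesicles that leave the endoplasmic reticulum, changed by 1.67 (SE 0.09), and MIA3, the procollagen export receptor TANGO1, by 0.77 (SE 0.08). KLHL12 and SEC23A, which also serve these vesicles, changed by -0.70 and -0.67 but by 0.30 and 0.37 under median centring with all spots in the background fit. Of 7 tested genes that trim propeptides 2 were higher and 2 lower. BMP1, the C-propeptide protease, changed by 1.18 (SE 0.07), and PCOLCE, its enhancer, by 0.27, which was lost without control replicate 2 or either PAK1 shRNA array (adjusted p up to 0.109) and under median centring with all spots in the background fit (0.09, adjusted p = 0.5). TLL1, a protease related to BMP1, changed by -0.44, lost without PAK1 shRNA replicate 2 (adjusted p = 0.0504), and ADAMTS3, an N-propeptide protease, by -0.38, lost without control replicate 2 (0.0599) or PAK1 shRNA replicate 1 (0.0735).

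Crosslinking enzymes gave 2 higher and 2 lower of 6 tested. LOXL1, a lysyl oxidase of elastic and collagen fibers, read 8.65 and 8.82 on control arrays and 6.69 and 6.82 on PAK1 shRNA arrays, a change of -1.98 (SE 0.09, adjusted p = 6.94e-06). LOX changed by -0.59, with 0.15 under median centring with all spots in the background fit. TGM2 changed by 0.64 (0.17 with adjusted p = 0.206 under that setting) and LOXL3 by 0.60, the latter lost without control replicate 1 (adjusted p = 0.0969) or PAK1 shRNA replicate 2 (0.0532).

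Collagen receptors were higher for 7 of 11 genes and lower for 1. ITGA10, an integrin alpha chain that binds collagen, read 10.38 and 10.37 on control arrays and 14.01 and 13.88 on PAK1 shRNA arrays. This was an 11.9-fold difference (log2 3.57, SE 0.08, adjusted p = 5.42e-07), larger than that of any collagen gene tested. ITGA1, of the collagen receptor integrin alpha1 beta1, was 3.43-fold higher (log2 1.78, SE 0.07, adjusted p = 3.9e-06). MRC2, an endocytic receptor that takes up collagen for breakdown, changed by -1.34 (SE 0.15, adjusted p = 0.000272), and by -0.017 (adjusted p = 0.902) under median centring with all spots in the background fit.

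Of 11 tested matrix proteins that bind collagen, 5 were higher and 3 lower. FN1, fibronectin, was at 6.30 and 6.31 on control arrays and at 7.75 and 8.50 on PAK1 shRNA arrays (log2 1.82, SE 0.22). It was above background on 1 of the 2 control arrays, and the value ran from 0.06 (adjusted p = 0.659) under median centring with all spots in the background fit to 4.16 under 75th percentile scaling. LUM, lumican, changed by 1.79 (SE 0.10), by 0.13 (adjusted p = 0.337) and by 3.63 under the same settings. LUM is also on the fibroblast marker list given above. SPARC, a collagen chaperone of the matrix, changed by -0.89 but turned to 0.26 under median centring with all spots in the background fit. FMOD, fibromodulin, was at background on both PAK1 shRNA arrays and at least 1.66-fold lower there (adjusted p = 0.000258).

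**Figure D5:**
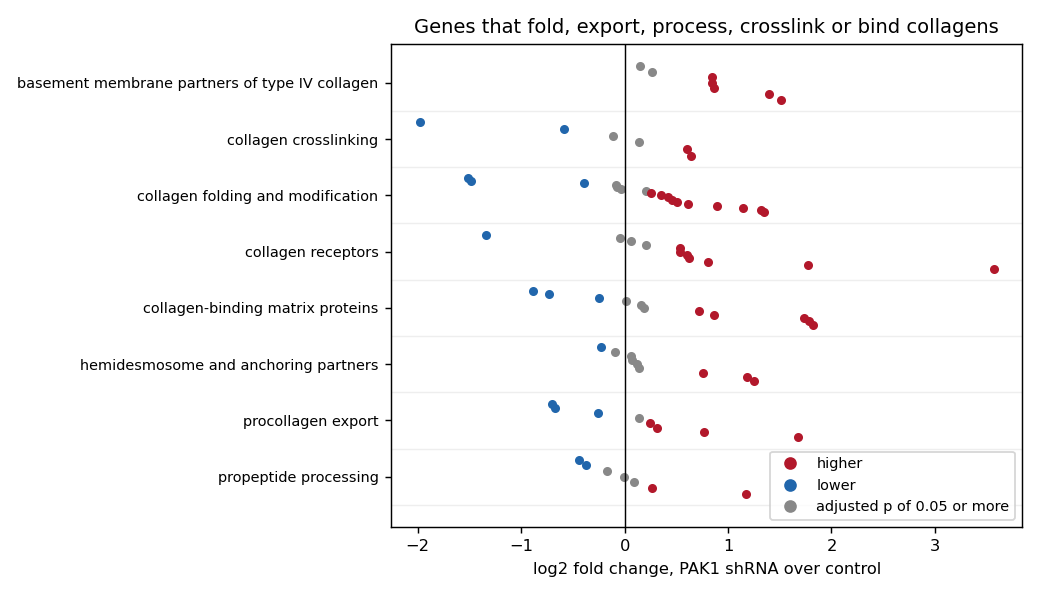
Log2 fold change of PAK1 shRNA over control (horizontal axis, n = 2 arrays per group, or 1 in 1 group for PLOD2, P4HB, SERPINH1, LAMA3 and LAMB3) for each tested gene of the 8 lists of collagen partners, 1 point per gene and list. ITGA10 at 3.57 is the farthest to the right and LOXL1 at -1.98 the farthest to the left. Single values under the alternatives were recomputed for 28 of the partner genes. Among these, the signs of KLHL12, SEC23A, LOX, FERMT1 and SPARC turned when median centring was combined with all spots in the background fit.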

How the data were processed

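RNA from 2 control and 2 PAK1 shRNA samples was hybridised to 1-colour Agilent arrays. Per the labels and file headers the authors scanned them with Feature Extraction (9.5; 9.5.3.1 in the headers), and the deposited intensity of each spot (mean and local median background) was used here. A second file from the authors gives log2 values, prepared according to the methods with normexp and quantile normalization; its scale is log2 and its medians were 9.40 to 9.42, and it served as an alternative. Its group differences correlated with those used here at 0.9986 over 24302 probes.

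Background was corrected by normexp in limma 3.58.1 (R 4.3.3, offset 50), with spots of flagged local background left out of the fit, since a few extreme ones moved it on both control arrays. Flagged spots (feature or background) were left out of the values, control spots were removed, arrays were quantile-normalized and spots averaged. Kept were the probes that stood well above background on each array of either group; the brightest stood for its gene, and limma's lmFit and eBayes gave p-values adjusted by Benjamini-Hochberg over all 21921 genes (threshold 0.05). In a run on simulated data of 21032 genes, 200 genes were changed. There 72% of changes of 1 on the log2 scale and 0% of changes of 0.5 were recovered, with 1 unchanged gene called. Far fewer genes were changed there than passed in the data (62.6%), so the adjustment for many tests was stricter in the simulation. The recovered shares therefore do not carry over to the calls above. The number of arrays limits the precision. A bound was set against the lowest signal well above background on each array.

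The collagen genes, partner lists and markers were chosen with earlier results of these data known. All measured members were named; from each partner list the 2 largest rises and 2 largest falls past the threshold were named; 1 partner gene is not reported here. The replicate numbers were not used to pair the samples in the main fit. Deviations of same-numbered arrays correlated at 0.01 over 26301 probes, which cannot settle whether the samples were paired. Genes are named as the array names them, except that older symbols of 6 partner genes were updated through RefSeq; probe positions are hg19, and promoters are from RefSeq, GRCh38.p14.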

Additional observations from a re-analysis of the deposited data

How the results depend on the processing

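Results were recomputed under 22 alternatives, 2 of them added after the data were seen: median centring combined with all spots in the background fit, and background-flagged spots kept unless their local background was above 100. The second gave 19 higher and 6 lower collagen genes too. Of the 25 collagen genes called, 9 kept their call and direction under all 22 (COL13A1, COL8A1, COL7A1, COL16A1, COL17A1, COL4A5, COL4A4, COL6A1 and COL18A1), and 20 with each array left out. The 22 include the demand for an at least 2-fold change, which no gene with a smaller change could meet. That part of the count follows from the size of the change. COL5A2 and COL9A3 lost their call under that demand only.

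The first added setting gave 14 lower collagen genes, 10199 higher genes over the array and PAK1 at 0.17 (adjusted p = 0.213), so the label check itself turned. It also reversed COL10A1 (0.26), COL14A1 (-0.49), COL19A1 (-1.51), COL21A1 (-1.45), COL23A1 (-0.79), COL24A1 (-1.23), COL2A1 (-0.74), COL4A2 (1.20), COL5A1 (-0.10), COL8A2 (-0.35), COL9A1 (-0.80), KLHL12 (0.30), SEC23A (0.37), LOX (0.15), FERMT1 (0.97) and SPARC (0.26); with quantile normalization the same background fit turned none of these, and the cause was not tested. The calls of COL9A2, COL20A1, PCOLCE, TGM2, MRC2, FN1 and LUM were lost there. Single values of partner genes were recomputed under the alternatives for 28 of them only. COL4A2 also turned under the 75th percentile (0.036), cyclic loess (0.089) and without PAK1 shRNA replicate 1 (0.049, the top of a range from -0.16 with 1 array left out), COL15A1 under median centring (0.087), COL14A1 in the deposited log2 table (-0.048), COL19A1 without control replicate 1 (-0.0085), and LAMA3 with probes averaged (-1.28).

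The median change of collagen genes was 0.50 under the 75th percentile of the processed signal, where the median of all genes rose to 0.12 (0.14 under median centring), and 0.18 without the filter on dim probes, over 43 genes. A plain unpaired test without moderation, after Benjamini-Hochberg, called 9 collagen genes higher, 4182 and 4557 of all genes higher and lower, and 20 and 9 partner genes. Asking for at least 2-fold left 8 and 3 collagen genes, 1929 and 1995 of all genes, 14 and 4 partner genes, and PAK1 (-0.76) no longer passed. Leaving out 1 array at a time gave 17 to 19 higher and 4 to 6 lower collagen genes, a median of 0.32 to 0.40, 5539 to 6223 and 5939 to 6531 of all genes, 32 to 36 and 11 to 13 partner genes, and PAK1 at -0.80 to -0.72. With the replicate block the counts were 20 and 7, adding COL14A1 and COL10A1. Of 723 values of collagen genes 645 kept sign and call, 45 lost the call, 16 gained it and 17 turned. With 2 arrays a group, changes near background such as those of COL15A1 and COL6A2 could not be measured well.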
